A study of Mus musculus with 6 samples.

Results

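The Hox cluster genes encode homeodomain transcription factors and lie in 4 clusters, HoxA on chromosome 6, HoxB on chromosome 11, HoxC on chromosome 15 and HoxD on chromosome 2 of the mouse. They were measured here in fetal testes of 3 control and 3 Dmrt1 null mouse samples at E13.5, the embryonic stage in days. Members were taken by gene symbol from the annotation of the array, with the brightest probe set standing for a gene that had several. Of 39 Hox genes in RefSeq, 33 had a probe set assigned to them alone, with 48 probe sets in all. Hoxb8 and Hoxd4 were covered only by probe sets whose annotation names a neighbouring Hox gene as well, and the remaining genes were not analysed here.

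Within a cluster, Hox genes are arranged by paralogue number from 1 at the 3' end to 13 at the 5' end. The order on the chromosome matches the order in which the genes are switched on along the head-to-tail axis of the embryo, so that low numbers reach anterior levels and high numbers are kept to posterior ones. Their proteins bind DNA together with TALE homeodomain cofactors of the PBX and MEIS families, Polycomb and Trithorax proteins maintain their off and on states, and retinoic acid induces many of the 3' genes. In the urogenital tract the 5' genes of the HoxA and HoxD clusters pattern the Wolffian and Müllerian ducts and the kidney.

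The series asks how loss of Dmrt1, a DM domain transcription factor of Sertoli and germ cells, changes gene expression in the fetal testis. The labels disagree on genotype. Controls are called wild type in the titles but Dmrt1 heterozygous in the descriptions, the genotype entries and the design text. Null samples are Dmrt1 homozygous null in the titles, descriptions and design text, but floxed on both alleles in the genotype entry, with no Cre driver named. All 6 samples were outcrossed to 129S6/SvEvTac, and each is labelled a biological replicate. The labels do not say whether a sample is 1 embryo or a pool, nor how the samples were kept separate, so p-values measure the spread between these samples, which may be technical.

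The median intensity of an array was 14.6 to 14.8 and its upper quartile lay between 224 and 233. With only 3 arrays in each group, small differences could not be resolved. Dmrt1 fell with the labels, at a mean intensity of 841 in controls and 33.0 in nulls (log2 difference -4.72, standard error 0.28, limma adjusted p = 0.00388). Without control replicate 3 the limma adjusted p of Dmrt1 was 0.0558, at a difference of -4.75. All 9 Sertoli markers, all 8 measured germ cell markers and all 4 measured fetal Leydig markers passed the expression filter, a mean log2 intensity of at least 4 over the 6 arrays. The descriptions end in a number that is 1 to 3 in the nulls and 4 to 6 in the controls. Its meaning is not stated, and it cannot be told apart from the genotype.

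Upstream sequence is shown for 3 passing members. They were taken from those with 1 upstream window in RefSeq and either a range over the arrays above 1 on the log2 scale or the smallest range. Hoxa3 also met this and is not shown. Hoxa5 and Hoxa11 are a central and a posterior member of the HoxA cluster whose brightest probe sets spread widely over the arrays, and Hoxd9 spread least. Each line gives the 250 bases before the RefSeq transcription start, 5' to 3' on the strand of the gene, with CpG dinucleotides in capitals.

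Hoxa5 (GRCm38.p6 chr6:52204588-52204837, minus strand): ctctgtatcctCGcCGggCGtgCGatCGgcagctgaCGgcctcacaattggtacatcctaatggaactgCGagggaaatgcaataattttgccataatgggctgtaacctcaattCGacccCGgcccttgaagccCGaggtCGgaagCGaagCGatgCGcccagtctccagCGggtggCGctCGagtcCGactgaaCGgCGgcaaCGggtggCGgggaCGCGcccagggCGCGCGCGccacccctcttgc

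Hoxa11 (GRCm38.p6 chr6:52245811-52246060, minus strand): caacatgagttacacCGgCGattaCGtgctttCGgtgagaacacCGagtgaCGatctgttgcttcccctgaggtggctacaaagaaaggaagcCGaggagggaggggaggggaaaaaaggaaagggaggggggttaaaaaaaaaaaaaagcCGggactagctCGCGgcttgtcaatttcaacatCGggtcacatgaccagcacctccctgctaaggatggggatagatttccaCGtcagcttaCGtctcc

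Hoxd9 (GRCm38.p6 chr2:74697513-74697762, plus strand): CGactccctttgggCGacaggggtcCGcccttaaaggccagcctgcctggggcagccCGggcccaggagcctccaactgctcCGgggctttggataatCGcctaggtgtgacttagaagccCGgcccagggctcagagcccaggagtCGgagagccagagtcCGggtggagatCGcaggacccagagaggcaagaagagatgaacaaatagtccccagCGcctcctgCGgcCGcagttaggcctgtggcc

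The windows hold 28 CpG for Hoxa5, 13 for Hoxa11 and 13 for Hoxd9. RefSeq windows of the same length existed for 19 of the members, 21 windows in all, and had a median of 13 CpG against 6 over all 32851 windows. Their median GC content was 59.2%, against 52.4% over all windows. Both strands were searched for ACATTGT, the core of the site bound by DMRT1, for TTTATNG, a CDX site, for TGATNNAT, a joint PBX and HOX site, and for TATAAA, the TATA box. ACATTGT was in 0 of 21 member windows and 2.56% of all windows, and TTTATNG in 0 of 21 and 9.81%. TGATNNAT was in 3 of 21, those of Hoxa2, Hoxb1 and Hoxd11, against 7.68% of all windows, and TATAAA was in 2 of 21 against 12.4%. These are letter matches in 250 bases and do not show binding.

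Of the 33 members, 24 passed the filter. Of these, 10 lay above the upper quartile of all probe sets by mean log2 intensity, namely Hoxa3, Hoxa9, Hoxa10, Hoxb3, Hoxc4, Hoxc5, Hoxc8, Hoxd8, Hoxd9 and Hoxd10. The 9 members below the filter were Hoxa13, Hoxb1, Hoxb2, Hoxb7, Hoxb13, Hoxc13, Hoxd1, Hoxd12 and Hoxd13, with intensities of 3.09 to 35.6. They included every measured gene of paralogue groups 12 and 13, the genes of the most caudal body, the external genitalia and the prostate, and both measured genes of group 1. Probe sets differ in how brightly they bind, so intensities of different genes were not ranked against each other. The brightest probe sets of 5 members, Hoxa3, Hoxa5, Hoxa10, Hoxb6 and Hoxd8, are of a type, marked by letters in the probe set name, that can bind related transcripts as well.

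**Figure D1:**
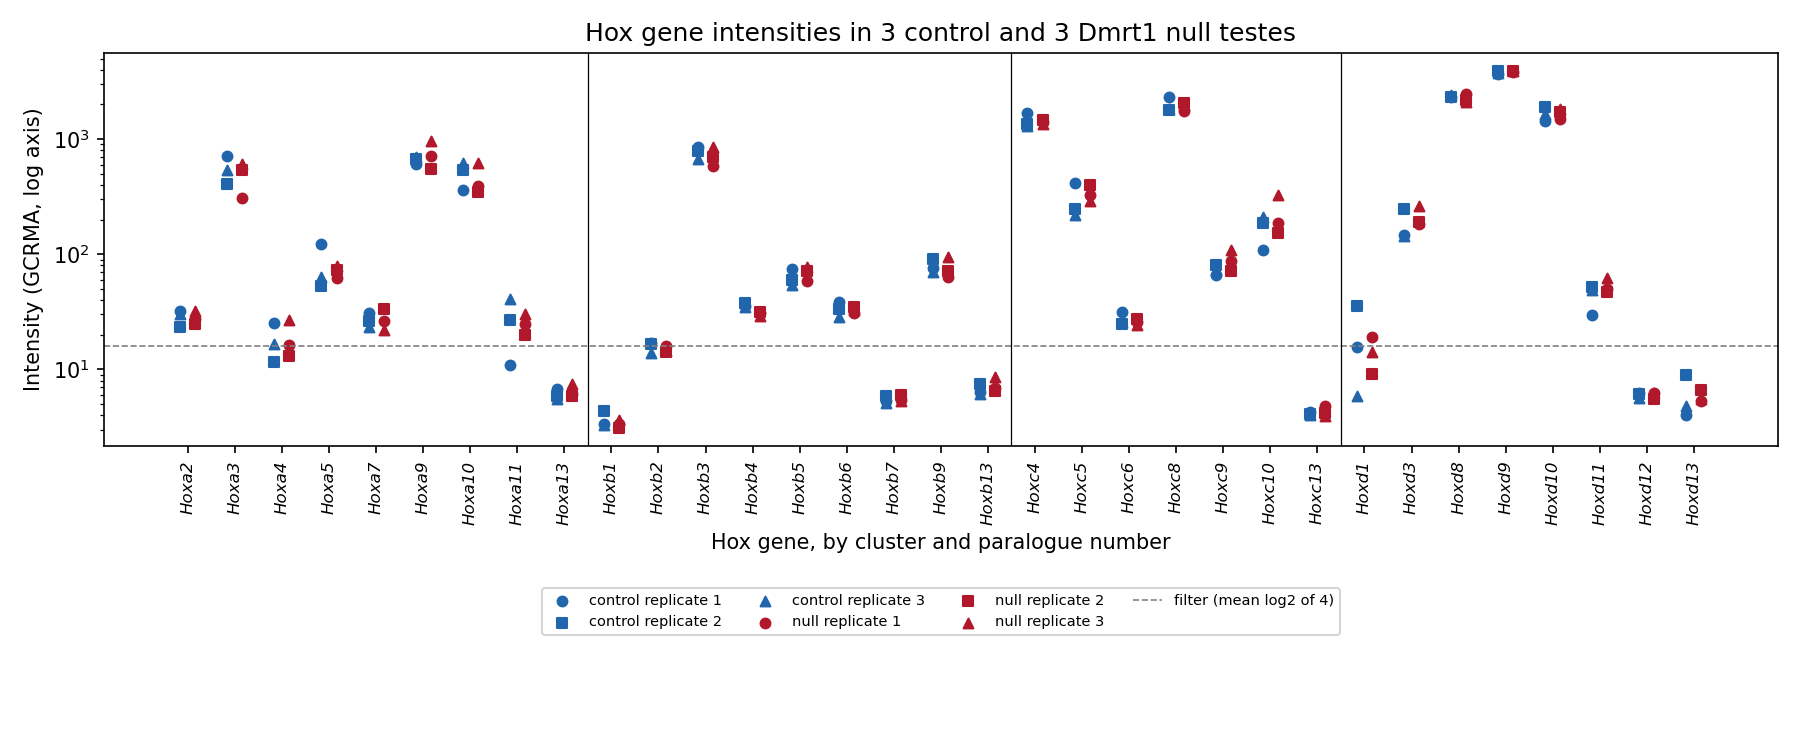
Intensity of each of the 33 Hox genes (log axis) in the 6 arrays, blue for control and red for null, with the replicate number as the marker shape, genes ordered by cluster and paralogue number, and the dashed line at the filter. The group 13 genes lie below the line in every array, and red and blue points overlap for all genes above it except Hoxb4.

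No Hox gene passed the test between null and control testes. Limma called 0 of the 24 members at an adjusted p of 0.05, where 0.0272% of all 22082 probe sets were called. At an unadjusted p under 0.05, limma gave 0 of 24 members, against 6.04% of all probe sets. The members divided evenly, 12 higher and 12 lower in the null, where 51.9% of all probe sets were higher. They had a median log2 difference of -0.0020 against 0.0077 over all probe sets. Differences ran from -0.25 for Hoxb4 to 0.37 for Hoxc10, and 0 of 24 exceeded 0.5 in size, against 3.52% of all probe sets. The 9 members below the filter had differences of -0.13 to 0.13.

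The intervals show what 3 arrays per group could resolve. The 95% confidence interval lay inside -1 to 1 on the log2 scale for 22 of 24 members, the exceptions being Hoxa11 and Hoxc10. It lay inside -0.5 to 0.5 for 11 members and inside -0.3 to 0.3 for 3, Hoxc4, Hoxd8 and Hoxd9. For the other members the interval did not exclude a difference of 0.3. The members spread more between arrays of a group than the median probe set, with a within-group standard deviation of 0.243 on the log2 scale at the median against 0.175 over all probe sets. This was uneven, at 0.444 for HoxA, 0.224 for HoxB, 0.202 for HoxC and 0.173 for HoxD. Members of groups 4 to 8 had 0.175, the same as all probe sets. The full range over the 6 arrays exceeded 1 on the log2 scale for 6 of 24, against 11.8% of all probe sets. These 6 were Hoxa3, Hoxa4, Hoxa5 and Hoxa11 of the HoxA cluster, Hoxc10 and Hoxd11. In bulk tissue, fewer cells of a type and less RNA per cell cannot be told apart.

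**Figure D2:**
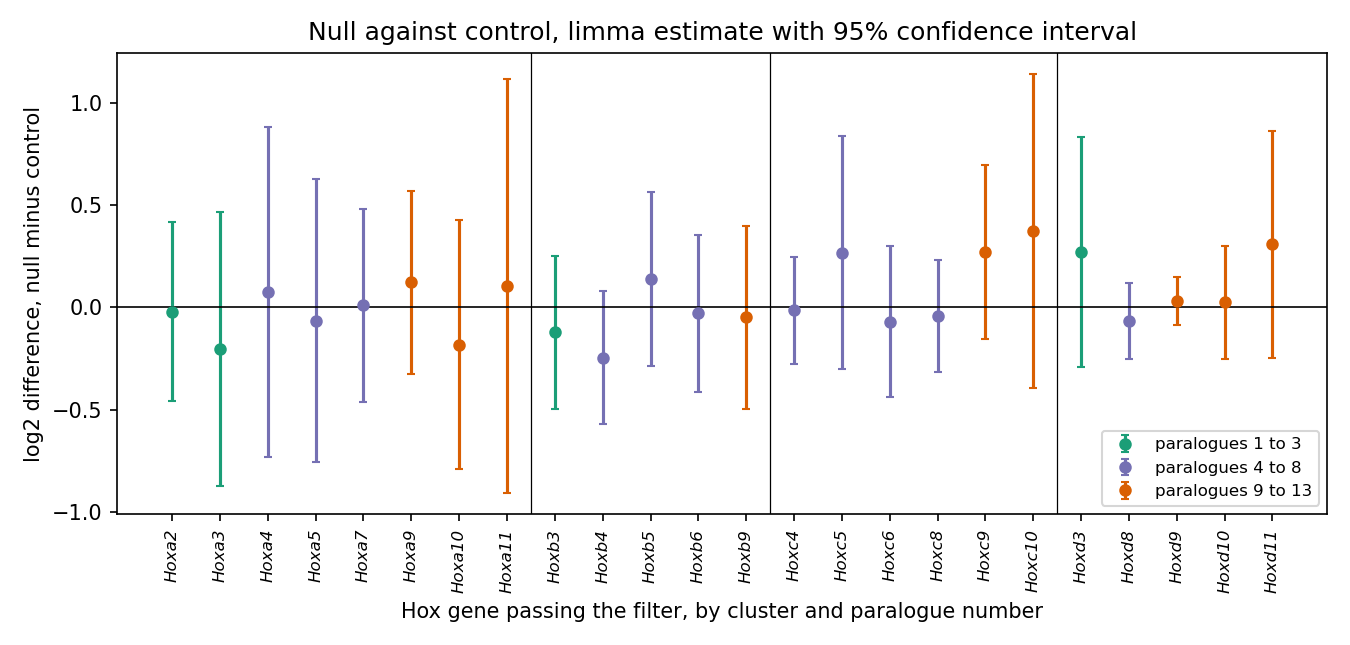
Null minus control log2 difference of the 24 Hox genes that passed the filter, with its 95% confidence interval from limma (n = 3 arrays per group), ordered by cluster and coloured by paralogue number. Every interval includes 0, and the widest are those of Hoxa11 and Hoxa4.

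By cluster, the differences were small in each. The median was -0.0057 over 8 HoxA members, -0.048 over 5 HoxB members, 0.13 over 6 HoxC members and 0.032 over 5 HoxD members. In the HoxB cluster 4 of 5 members were lower, and in the HoxD cluster 4 of 5 were higher, none of them called. By position, the median was -0.071 for 4 members of paralogue groups 1 to 3, -0.029 for 11 of groups 4 to 8 and 0.10 for 9 of groups 9 to 13. Each of these medians changed sign with the array left out. For groups 1 to 3 it ranged from -0.19 without null replicate 3 to 0.056 without null replicate 1, and for groups 4 to 8 from -0.090 without control replicate 3 to 0.11 without control replicate 1. For groups 9 to 13 it ranged from -0.039 without null replicate 3 to 0.26 without null replicate 2.

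Hoxb4 had the smallest p of the family. HOXB4 is known for expanding blood stem cells and patterns the hindbrain and neck. Its intensities in replicate order were 35.8, 37.7 and 34.7 for the controls and 31.1, 31.3 and 28.9 for the nulls. All null values lay below all control values, by a log2 difference of -0.25 (95% confidence interval -0.57 to 0.081, limma adjusted p = 0.776). It was the only member of the 24 whose groups did not overlap, against 12.8% of all probe sets. Counted by direction, 1 of 24 members was lower without overlap, against 6.06% of all probe sets, and 0 of 24 were higher without overlap, against 6.73%. With 16 added to every intensity its difference was -0.17, and its other probe set, below the filter at 5.77 to 7.75, had a difference of 0.056.

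Among the 5' genes, those of groups 9 to 11, Hoxc10, Hoxd11 and Hoxc9 had the largest positive differences. Hoxc10, a gene of the lumbar and hindlimb level, gave 109, 185 and 211 in the controls, in the order of replicates 1, 2 and 3, and 186, 153 and 326 in the nulls. Control replicate 1 was lowest and null replicate 3 highest, and the groups overlapped (log2 difference 0.37, standard error 0.33, limma adjusted p = 0.830). Omitting null replicate 3 gave a difference of 0.058, omitting control replicate 1 gave 0.089, and omitting null replicate 2 gave 0.60.

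Hoxd11 acts with its group 11 paralogues in the kidney and forearm. It gave 29.8, 51.5 and 49.3 in the controls and 49.6, 46.9 and 62.0 in the nulls. Again control replicate 1 stood lowest and null replicate 3 highest (log2 difference 0.31, standard error 0.24, limma adjusted p = 0.813). Without control replicate 1 the difference of Hoxd11 was 0.058. In RefSeq the spans of Hoxd11 and Hoxd10 overlap by 2744 bases.

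Hoxa11, needed for the vas deferens and the uterus, had the widest spread of the passing members. Its intensities were 11.0, 26.6 and 40.8 in the controls and 24.7, 19.8 and 30.3 in the nulls, in replicate order. The highest and the lowest array were both controls, 3.71-fold apart, and the null values fell between them. The log2 difference was 0.10 (95% confidence interval -0.91 to 1.12, limma adjusted p = 0.970). It became -0.42 without control replicate 1, 0.52 without control replicate 3 and -0.47 with array weights. Its antisense neighbour Hoxa11os, a noncoding RNA of the same locus, was also lowest in control replicate 1, as were 20.8% of all probe sets. Hoxa11os had a mean log2 intensity of 4.00, at the filter. That RNA gave 9.20, 19.4 and 19.8 in the controls and 17.3, 12.1 and 23.1 in the nulls.

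Hoxa10, a gene of testis descent and the uterus, gave 362, 540 and 620 in the controls and 393, 344 and 615 in the nulls. The groups overlapped, with a log2 difference of -0.18 (limma adjusted p = 0.897). The difference of Hoxa10 ran from -0.43 without null replicate 3 to -0.0095 without null replicate 2 and was -0.42 with array weights. Hoxa9 gave 611, 678 and 703 in the controls and 712, 548 and 964 in the nulls, so that both extremes were null arrays. Hoxc9, a thoracic-level gene, gave 66.0, 80.0 and 72.8 in the controls and 87.2, 72.0 and 108 in the nulls. Its log2 difference of 0.27 (95% confidence interval -0.15 to 0.70) had the second smallest p of the family, with a limma adjusted p of 0.792. That difference was 0.12 if null replicate 3 was left out and 0.42 if null replicate 2 was. Hoxb9 gave 75.4, 90.1 and 70.6 in the controls and 63.1, 72.2 and 95.3 in the nulls.

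Hoxd9 and Hoxd10 were the steadiest 5' genes. Both act in the lumbar spinal cord and hindlimb. Hoxd9 gave 3700, 3910 and 3710 in the controls and 3810, 3870 and 3890 in the nulls, a total spread of 0.080 on the log2 scale. Its difference of 0.032 had an interval of -0.084 to 0.15, the narrowest of the passing members. Hoxd10 gave 1440, 1880 and 1660 in the controls and 1500, 1720 and 1840 in the nulls (log2 difference 0.026). The values of both genes were interleaved between the groups.

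The central genes, groups 4 to 8, hold the thoracic and neck identities. Hoxc8, which specifies lower thoracic vertebrae, gave 2340, 1790 and 1830 in the controls and 1740, 2050 and 1970 in the nulls. Hoxc4 gave 1690, 1340 and 1290 in the controls and 1420, 1470 and 1360 in the nulls. Hoxd8 gave 2300, 2330 and 2410 in the controls and 2480, 2170 and 2090 in the nulls. For each of these 3 genes the interval lay within 0.32 of 0 on the log2 scale, and control replicate 1 was the highest array for Hoxc8 and Hoxc4.

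Hoxc5 gave 413, 248 and 217 in the controls and 330, 403 and 292 in the nulls. The log2 difference of 0.27 (standard error 0.25, limma adjusted p = 0.832) became 0.55 without control replicate 1 and 0.081 without control replicate 3. Its other passing probe sets had differences of 0.18 and -0.015. Hoxa5, a gene of lung and neck development, gave 123, 53.4 and 63.3 in the controls and 62.5, 73.3 and 79.4 in the nulls. Control replicate 1 stood well above the rest, and without it the difference of Hoxa5 moved from -0.064 to 0.30. A second passing probe set of Hoxa5 had a difference of 0.050. Hoxa4, which male germ cells of the adult testis express, gave 25.5, 11.6 and 16.6 in the controls and 16.4, 13.1 and 26.8 in the nulls.

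The remaining central genes pattern the neck and thorax. Hoxb5 gave 75.1, 59.5 and 53.9 in the controls and 58.8, 71.1 and 76.9 in the nulls. Hoxb6 gave 38.4, 33.7 and 28.5 in the controls and 30.8, 34.5 and 32.7 in the nulls. These 2 genes lie side by side in the HoxB cluster. The lowest array was control replicate 3 for both, but also for Hoxc4, Hoxc5 and Hoxd3 of other clusters. For Hoxb4 of the HoxB cluster the lowest array was null replicate 3. Hoxc6 gave 31.3, 25.0 and 25.8 in the controls and 25.9, 27.5 and 24.5 in the nulls. Hoxa7 gave 31.1, 26.2 and 23.2 in the controls and 26.1, 33.3 and 22.2 in the nulls. Differences of Hoxb5, Hoxb6, Hoxc6 and Hoxa7 were 0.14, -0.029, -0.070 and 0.0098 on the log2 scale, with overlapping groups. Hoxc6 had other passing probe sets at 0.076 and 0.060, opposite in sign.

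Among the 3' genes, Hoxa3, which builds the thymus and parathyroid, gave 713, 405 and 541 in the controls and 309, 541 and 612 in the nulls. Its log2 difference was -0.20 (standard error 0.29, limma adjusted p = 0.895) and became 0.095 without null replicate 1. Hoxb3 gave 848, 782 and 671 in the controls and 580, 692 and 861 in the nulls (log2 difference -0.12). Null replicate 1 was the lowest array for both. The RefSeq span of Hoxa3 covers Hoxa4, Hoxa5 and Hoxa6, and that of Hoxb3 covers Hoxb4, so transcripts of these genes can share sequence. Hoxd3 gave 147, 245 and 145 in the controls and 182, 191 and 265 in the nulls (log2 difference 0.27, standard error 0.24, limma adjusted p = 0.830). Leaving out null replicate 3 gave 0.10 for Hoxd3, and leaving out control replicate 2 gave 0.52. Hoxa2, the selector gene of the second pharyngeal arch, gave 32.2, 23.2 and 30.4 in the controls and 27.6, 24.6 and 32.0 in the nulls.

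Of the members below the filter, Hoxb2 of the HoxB cluster gave 16.8, 16.5 and 13.9 in the controls and 16.1, 14.3 and 14.4 in the nulls. Hoxd1 of the HoxD cluster gave 15.6, 35.6 and 5.84 in the controls and 19.0, 9.19 and 14.2 in the nulls, a 6.10-fold spread whose extremes were both controls. Hoxa13 of the HoxA cluster ranged from 5.55 to 7.40 and Hoxc13 of the HoxC cluster from 3.92 to 4.78. Levels this low rest on the background correction made before deposit.

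Arrays differed from each other along the clusters within each genotype. This grouping by paralogue number was made after the values were seen and is given as a description. In control replicate 1, 0 of the 9 passing members of groups 9 to 13 lay above their mean over the 6 arrays, and 14 of the 15 members of groups 1 to 8 lay above theirs. The exception was Hoxd3. Over all probe sets that passed the filter, 48.9% lay above their mean in that array. Control replicate 1 was the lowest of the 6 arrays for 6 of the 9 posterior members, against 20.8% of all probe sets, and the highest for 8 of the other 15, against 20.0% of all probe sets.

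Null replicate 3 showed the posterior genes at the other extreme. All 9 lay above their mean there, against 50.7% of all probe sets, and it was the highest array for 5 of them. This was not particular to the posterior genes. All 4 members of groups 1 to 3 also lay above their mean there, at a median deviation of 0.26. Of the 11 members of groups 4 to 8, 4 did, at a median deviation of -0.065. The median deviation of the posterior members was -0.28 in control replicate 1 and 0.40 in null replicate 3, in log2 units. Control replicates 2 and 3 had 0.13 and 0.023, and null replicates 1 and 2 had 0.012 and -0.15. For groups 1 to 8 the medians in replicate order were 0.22, -0.088 and -0.13 for the controls and -0.090, 0.047 and 0.020 for the nulls. Both groups held arrays above and below 0 in each class.

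The counts of 0 of 9 and 9 of 9 were the same under quantile normalization, under median centring and with 16 added to the intensities. The count of groups 1 to 8 above their mean in control replicate 1 was 13 of 15 under quantile normalization and 14 of 15 under the other settings. With every passing probe set of the members in place of the brightest, it was 20 of 23. All these settings reuse the arrays in which the pattern was seen, so they cannot test it.

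**Figure D3:**
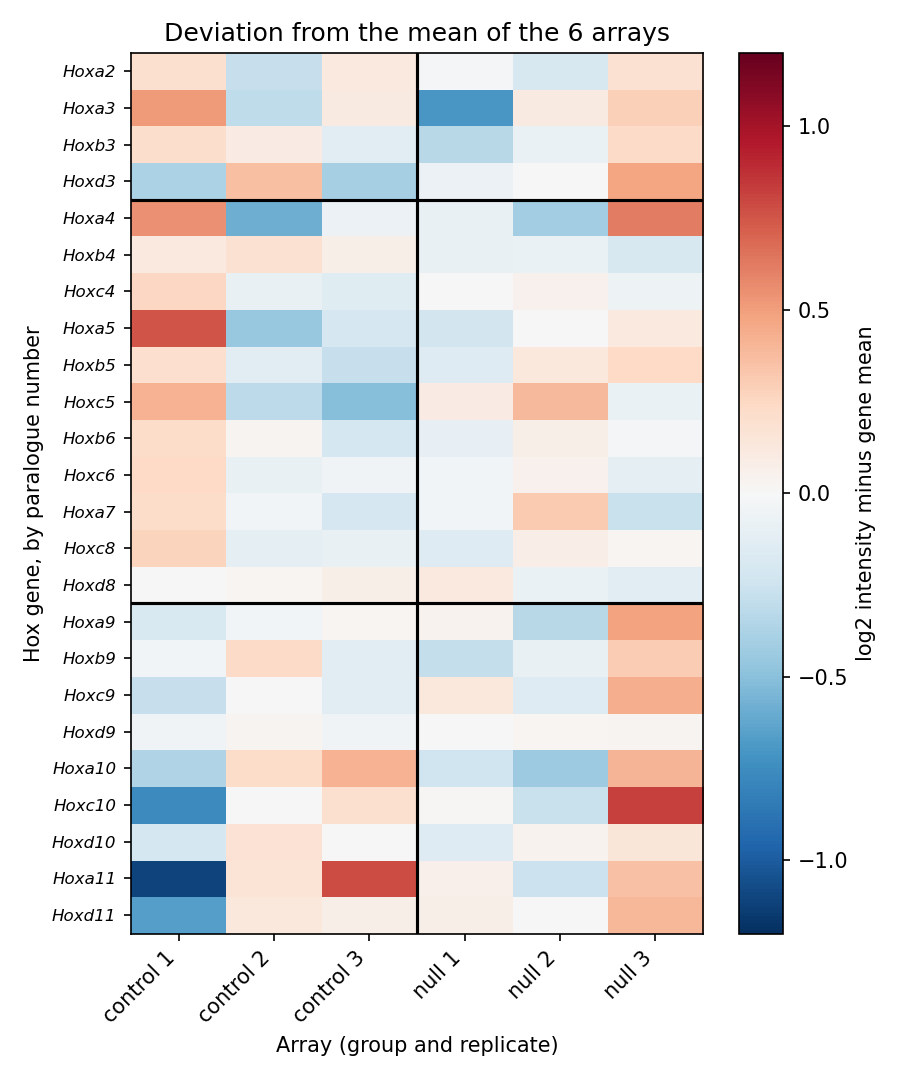
Deviation of log2 intensity from the mean over the 6 arrays for the 24 Hox genes that passed the filter, ordered by paralogue number, with lines after groups 3 and 8 and between control and null arrays. In control replicate 1 the members of groups 9 to 13 are below their means and 14 of the 15 others above. In null replicate 3 all 9 of groups 9 to 13 are above, as are the 4 of groups 1 to 3.

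Markers of other cells moved between the same arrays. Median deviations of 10 endothelial markers in replicate order were 0.32, -1.14 and 0.31 for the controls and -0.51, 0.27 and 0.52 for the nulls. Their summed intensity was 1493 to 3770 in controls and 2289 to 4128 in nulls. Median deviations of the 4 fetal Leydig markers were -0.75, 0.76 and 0.78 in the controls and 1.26, -0.65 and -1.40 in the nulls, with sums of 4024 to 10320 in controls and 3204 to 12950 in nulls. For the 5 of 6 erythroid markers that passed the filter, median deviations were 0.85, -1.33 and -0.072 for the controls and -0.35, 0.60 and 0.69 for the nulls. For the 9 Sertoli markers they were 0.19, -0.0056 and -0.046 for the controls and -0.12, -0.067 and -0.17 for the nulls. Control replicate 1 and null replicate 3 lay on the same side of 0 for the endothelial, Leydig and erythroid lists. These arrays, which also differ in genotype, lay on opposite sides for the Sertoli list and for the mesonephros and duct list given below. Both of those lists had medians below 0 in every null and on both sides of 0 in the controls.

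All 11 measured mesonephros and duct markers passed the filter. Their summed intensity was 4181 to 5557 in controls and 4383 to 4831 in nulls, mostly from Emx2, Lhx1 and Sall1. Their median deviations in replicate order were 0.11, 0.16 and -0.22 for the controls and -0.081, -0.011 and -0.11 for the nulls. All 11 interstitial and peritubular markers passed too, with sums of 25150 to 26020 in controls and 23800 to 24560 in nulls. Of 8 limb and body wall muscle markers, Myod1, Myog, Myh3 and Tbx5 lay below the filter. The list summed to 1252 to 1530 in controls and 915 to 1226 in nulls. Prrx1 made up most of this sum, at 1110, 1100 and 1350 in the controls and 969, 1070 and 778 in the nulls. Of the 4 passing markers of the list, 2 were higher and 2 lower in the null. The 5 neural markers summed to 181 to 448 in controls and 175 to 335 in nulls. Null replicate 3 had the highest 3'/5' ratio at the Actb control, a measure of RNA quality, at 2.75, where the remaining arrays lay between 1.91 and 2.15. The part of these markers and of RNA quality in the Hox pattern was not tested.

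Between the groups, 1 gene of the cell type lists was called, the Sertoli gene Cst9. It gave 3040, 3460 and 2940 in the controls and 1180, 860 and 1150 in the nulls (log2 difference -1.58, limma adjusted p = 0.0271). All nulls lay below all controls. The limma call of Cst9 was lost without control replicate 1, 2 or 3 (adjusted p = 0.0600, 0.104 and 0.206), without null replicate 3 (0.194) and without the intensity trend (0.0929), while its difference stayed between -1.66 and -1.43. The duct receptor Ret, which germ cells also express, had a difference of -2.34 (limma adjusted p = 0.0979). The smallest p of the other lists belonged to Wnt5a of the interstitium at -0.45, Piwil2 of germ cells at -0.60, Egfl7 of endothelium at 0.58 and Cyp17a1 of Leydig cells at -0.62. Hbb-bh1 of red cells was at 0.99, Mrc1 of macrophages at -0.54, Elavl4 of neurons at -0.56 and Prrx1 of limb and body wall mesenchyme at -0.34. None of these 8 genes was called by limma, at adjusted p of 0.773 to 0.852.

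**Figure D4:**
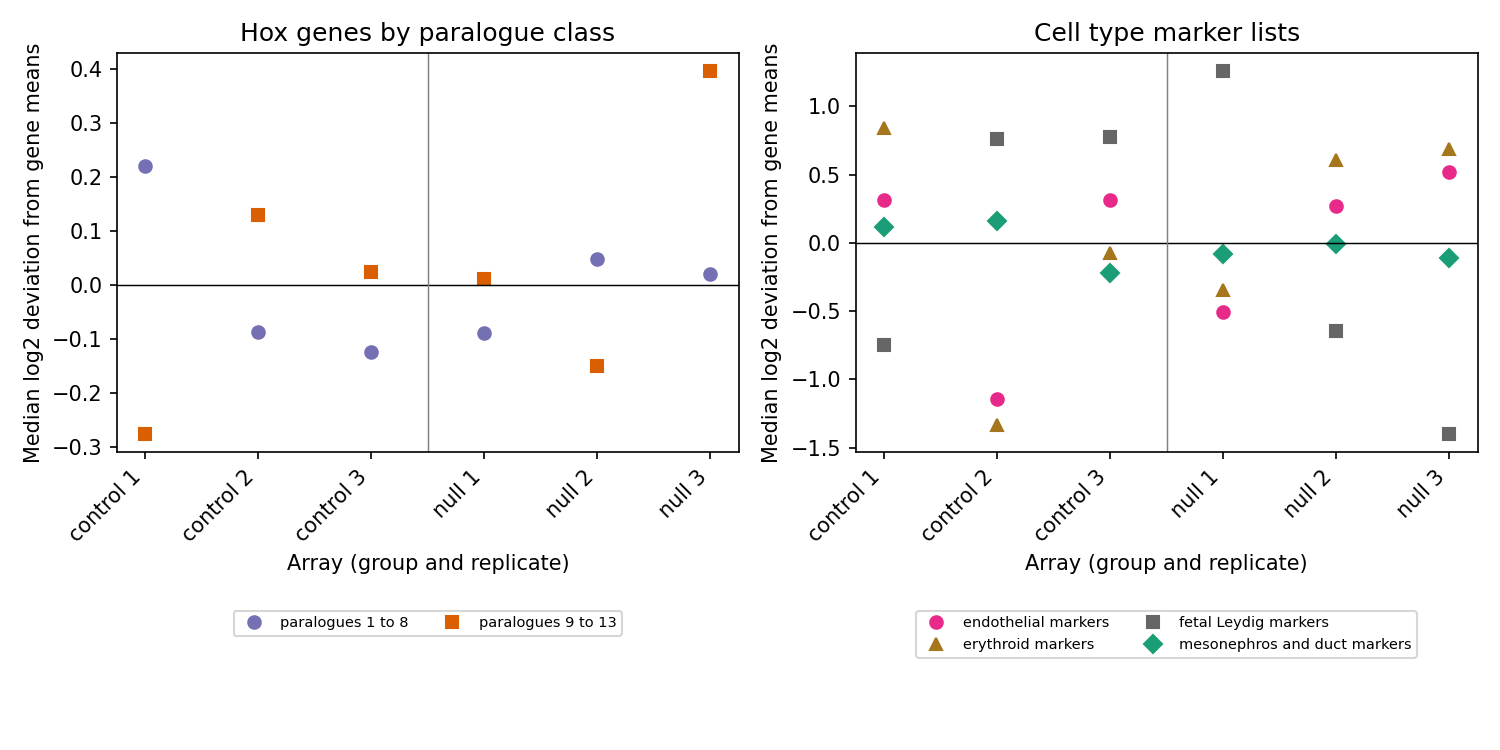
Median log2 deviation from gene means in each array, at left for the 15 passing Hox genes of groups 1 to 8 and the 9 of groups 9 to 13, at right for 4 cell type marker lists. In control replicate 1 the posterior Hox median is -0.28 and in null replicate 3 it is 0.40. In these 2 arrays the Leydig median is below 0, and the endothelial and erythroid medians are above 0. The mesonephros and duct median is 0.11 in control replicate 1 and -0.11 in null replicate 3. Its highest value, 0.16, is in control replicate 2 and its lowest, -0.22, in control replicate 3.

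Transcripts of genes whose proteins work with or on Hox genes were measured for context, and none of them was called. Of 7 TALE cofactors that passed the filter, 5 were higher and 2 lower, with a median difference of 0.025. Meis1 and Meis2, which stabilise HOX proteins on DNA, were at 0.11 and 0.0055, and Pknox1 had the smallest p of the list (log2 difference -0.36, limma adjusted p = 0.795). Of 15 Polycomb genes, 11 were higher and 4 lower (median 0.018), with the smallest p for Phc2 at 0.27 (limma adjusted p = 0.773). Of 10 Trithorax genes, 3 were higher and 7 lower (median -0.063). Kmt2a, the methyltransferase that keeps Hox genes on, was at -0.39 (limma adjusted p = 0.773).

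Retinoic acid genes had 9 of 14 passing members higher and 5 lower, with a median of 0.074 and the smallest p for Rxrb at 0.24 (limma adjusted p = 0.774). Cyp26b1, which breaks down retinoic acid in the fetal testis, was at 0.039, and Rarb, a receptor that retinoic acid induces, at 0.11. Of 10 measured upstream regulators, Gata4 alone passed the filter, at 0.25 (limma adjusted p = 0.773). The caudal factors Cdx1, Cdx2 and Cdx4 lay below the filter. Genes flanking the clusters had 4 of 12 passing members higher and 8 lower, with a median of -0.050. The smallest p among them was that of Cbx5 at -0.15 (limma adjusted p = 0.774), and Evx1 and Evx2, the homeobox genes at the 5' ends of HoxA and HoxD, lay below the filter.

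The 3 measured noncoding RNAs of the clusters all passed the filter. Hoxa11os, Hoxb5os and Hoxd3os1 had log2 differences of 0.15, 0.31 and -0.076, none called. Hoxb5os gave 56.8, 48.4 and 25.0 in the controls and 48.0, 72.2 and 38.1 in the nulls. Its lowest array, control replicate 3, was also the lowest for Hoxb5 and Hoxb6, and for Hoxc4, Hoxc5 and Hoxd3 of other clusters. Of 8 candidate Hox targets of trunk mesoderm that passed, 3 were higher and 5 lower (median -0.066). The integrin Itgb3 had the smallest p there, at -0.53 (limma adjusted p = 0.773), and the kidney regulator Eya1 was at 0.0088.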

How the data were processed

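Per the labels' protocols, gonads in RNAlater yielded RNA by the Allprep Micro kit, of which 100 ng was amplified and biotin-labelled (NuGen Ovation). The authors deposited linear intensities, made with GCRMA per the submitters' processing notes (version not given in the sources used here). This method corrects background and normalizes between arrays, so dim values depend on it.

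Of 45101 probe sets, 34958 had 1 gene symbol in GEO's platform annotation. All 33 members matched RefSeq (GRCm38.p6) by Entrez ID. The brightest probe set stood for a gene. Log2 values were formed without a constant, and 22082 probe sets with a mean of at least 4 entered limma 3.58.1 (R 4.3.3) with the 2 groups as coefficients and an eBayes trend on intensity, two-sided, with Benjamini-Hochberg adjustment over all of them. Differences are null minus control. The script was checked on simulated data. Probe sets with several symbols or none were not used for the members or lists. Those that passed the filter stayed in the fit and in the shares over all probe sets.

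Named genes are all passing members with every array's value, the brightest of each cluster below the filter, Dmrt1, and the gene of smallest p and any called gene of each list. Other list genes named (such as Meis1, Cyp26b1, Rarb, Eya1 and the noncoding RNAs) were picked with their values known. The members and lists were chosen with earlier results of these data known. Grouping the array pattern by paralogue number, repeating it under other settings, and refitting Dmrt1 and Cst9 under the alternatives, was chosen after the data were seen. Alternatives were other filters and scalings, an added constant, other eBayes settings, array weights, a replicate block, leaving out each array and other probe sets per gene.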

Additional observations from a re-analysis of the deposited data

How the results depend on the processing

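Limma called 0 Hox members in each of the alternatives run, including an adjusted p threshold of 0.1, and the smallest adjusted p of a member in any of them was 0.508, for Hoxc5 with array weights. The median difference of the members stayed between -0.035 and 0.068. Of the 24 members, 10 kept the sign of their difference in every alternative and 14 changed it when some array was left out, so directions of single members rest on few arrays. The count of members with groups that did not overlap was 1 as reported. It was 0 with a filter at a mean of 6 and 0 with the mean over the probe sets of a gene. Both of these settings put Hoxb4 below the filter, so it was not counted. With single arrays left out, 1 to 3 members had groups that did not overlap. Hoxb4 was among them each time an array was left out.

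Over all probe sets, 6 were called as reported, 1 without the intensity trend, 3 without probe sets whose names carry suffix letters, 0 with the replicate number as a block and 0 to 4 with single arrays left out, the 0 being without control replicate 3. Samples of the same replicate number had correlations of deviations of -0.59, -0.34 and 0.15. Those of unlike number ran from -0.40 to 0.58, the highest for control replicate 2 with null replicate 1. With 3 arrays per group these values cannot show whether samples were paired. The replicate block gave a median difference of -0.0020 and 0 Hox members called. Its limma adjusted p was 0.200 for Dmrt1 and 0.463 for Cst9. Signals below a mean log2 of 4 and 3 arrays per group limit what can be resolved for the dim members.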
